A study of Mus musculus with 24 samples.

Results

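The step studied here was the change of lens epithelium between embryonic days E16.5 and E18.5, read as E18.5 against E16.5. It was measured over all genes in the 3 E18.5 and the 3 E16.5 epithelium libraries, 6 of the 24 libraries of the series. The same step in lens fiber, with 3 libraries at E18.5 and 3 at E16.5, was used to separate the rises that also occurred in fiber from the others, and markers of pigment cells, retina and ciliary margin were followed beside them. All libraries came from CD1 mice, an outbred albino stock, with no treatment or engineered allele named in the labels, and whole lenses were microdissected into epithelium and fiber before total RNA was sequenced. Libraries at E14.5 and at 0.5 days after birth (P0.5) entered the model and give the course of single genes. Whether a library pools several animals is not stated in the labels, and the p-values therefore measure only the spread between these libraries.

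The lens epithelium is a single layer of cells on the front of the lens. It divides, supplies the cells that become fibers at the lens equator and lays down the front of the lens capsule, a thick basement membrane. The rim of the optic cup lies next to the lens equator and forms the ciliary body and iris, with an inner layer that continues the retina and an outer layer that carries pigment genes. A mesh of fetal vessels also wraps the lens in this period. Dissected epithelium can therefore hold RNA of neighbouring tissue, and in bulk RNA more cells of a type and more RNA per cell cannot be told apart.

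Total counts were 7658794 to 9707224 in E18.5 epithelium and 8352928 to 11819117 in E16.5 epithelium, against 17012093 to 21116574 in E18.5 fiber and 13658834 to 18050763 in E16.5 fiber. Rn45s, the precursor of ribosomal RNA, made up 5.82% to 8.10% of the counts in E18.5 epithelium and 5.95% to 9.82% in E16.5 epithelium, and 28.9% in E18.5 fiber replicate 2. Crystallin genes took 2.56% to 2.65% in E18.5 epithelium and 2.91% to 3.32% in E16.5 epithelium. The lens identity of the libraries was checked on Pax6, the master regulator of eye development, and Foxe3, a transcription factor of lens epithelium. Pax6 stood at 517, 542 and 583 CPM, counts scaled to a common library size, at E18.5 and 439, 395 and 417 CPM at E16.5. Foxe3 stood at 177, 221 and 130 CPM at E18.5 and 171, 203 and 177 CPM at E16.5.

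Of 12427 genes tested, 907 (7.3%) were called in epithelium, of which 839 (6.75%) rose and 68 (0.547%) fell. A gene was called when edgeR's quasi-likelihood test gave a Benjamini-Hochberg adjusted p below 0.05 and the change reached 2-fold. In fiber 237 genes (1.91%) rose and 90 (0.724%) fell over the same step. The median change of all genes was -0.02 on the log2 scale in epithelium and 0.00 in fiber.

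The 839 rises were divided by what the same gene did in fiber. The 74 genes that rose in both tissues made up 8.82% of the epithelium rises and 31.2% of the fiber rises. A further 378 rose in epithelium and had a step that was larger in epithelium than in fiber by the test of the difference itself, which called 541 genes (4.35%) higher and 116 (0.933%) lower. The remaining 387 rose in epithelium and met neither condition. In fiber their median level was 0.525 CPM at E18.5 and 0.357 CPM at E16.5, against 1.66 and 2.05 CPM for the 378. The test of the difference thus had few fiber counts for many of the 387, which are not shown to be an intermediate class. The median log2 change of the 74 shared rises was 1.48 in epithelium and 1.60 in fiber. The median of the 378 was 2.15 in epithelium and -0.17 in fiber, and that of the 387 was 1.53 in epithelium and 0.47 in fiber. Changes of at least 8-fold occurred in 8 of the 74, 98 of the 378 and 80 of the 387. Since the classes were cut from these same changes, the medians describe them and test nothing. With libraries scaled by their total count alone, the median of all genes moved to -0.36 in fiber and 0.03 in epithelium, and 53 genes rose in both tissues while 569 had a larger rise in epithelium. Without E18.5 fiber replicate 2, the library richest in Rn45s, 216 genes rose in fiber and 62 of the 74 shared rises were kept.

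**Figure D1:**
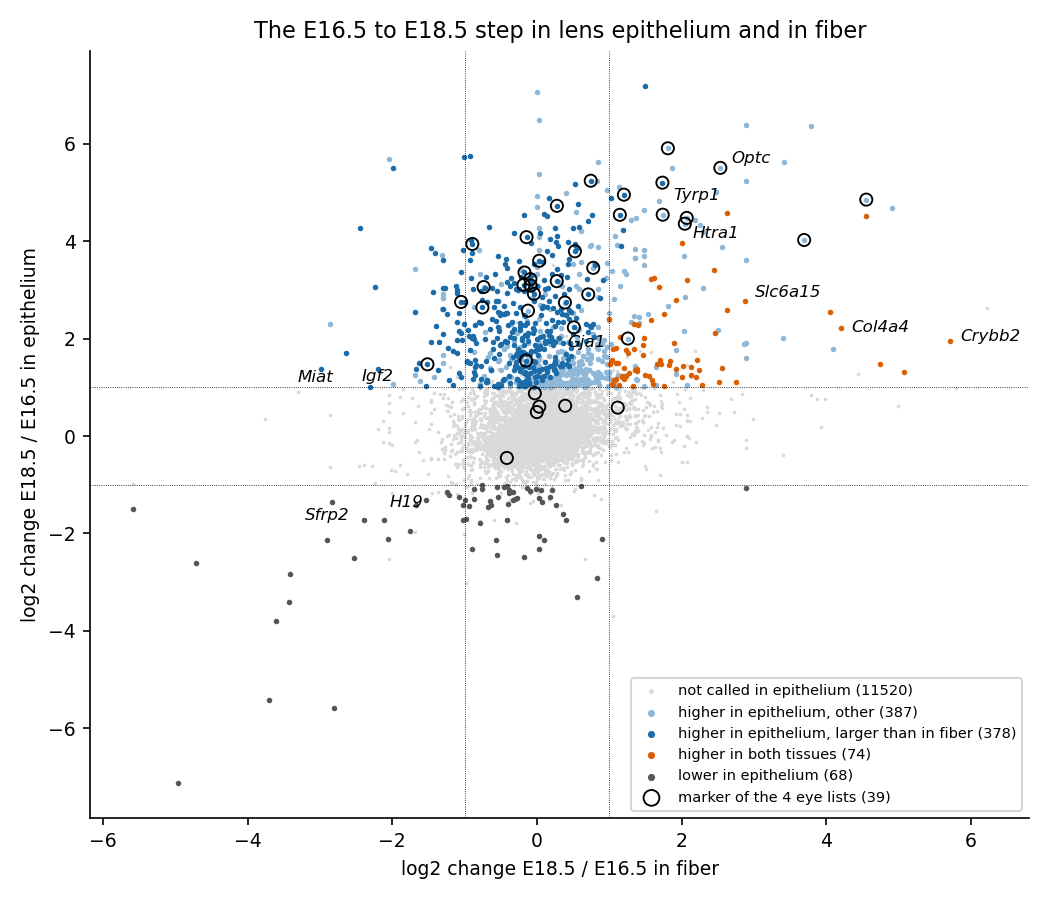
Each point is 1 of 12427 genes, with its log2 change between E16.5 and E18.5 in fiber on the horizontal axis and in epithelium on the vertical axis; dotted lines mark 2-fold, and open circles mark the 39 tested markers of the pigment cell, retinal pigment epithelium, ciliary margin and retina lists. Most open circles lie high on the vertical axis and near 0 on the horizontal axis, while Slc6a15, Col4a4 and Htra1 lie up and to the right.

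Marker lists of 4 eye tissues around the lens were followed as the sum of their members in each library. The sum of all 39 tested members was 1650, 1600 and 2000 CPM at E18.5 and 183, 233 and 318 CPM at E16.5, to 3 significant digits. No E16.5 library came near an E18.5 library. In fiber the sum averaged 171 ± 16.1 CPM at E18.5 and 175 ± 14 CPM at E16.5 (SD, n = 3 each). A sum follows its most abundant members. The median log2 change of the members in fiber was 0.93 for pigment cell and 0.77 for retinal pigment epithelium. It was 0.52 for ciliary margin and -0.09 for retina. Of the pigment cell members 1 was called in fiber, and of the retinal pigment epithelium members 0. The latter list summed in fiber to a mean of only 2.74 CPM at E18.5 and 2.29 CPM at E16.5.

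The ciliary margin list held most of that sum at E18.5 and less of it at E16.5, with 1010, 971 and 1210 CPM at E18.5 and 51.9, 91.7 and 154 CPM at E16.5. The pigment cell list summed to 444, 420 and 486 CPM at E18.5 and 98.1, 104 and 105 CPM at E16.5. The retina list summed to 175, 188 and 268 CPM at E18.5 and 30.2, 34.5 and 54.8 CPM at E16.5. The retinal pigment epithelium list was the lowest, at 24.1, 22.4 and 37.4 CPM at E18.5 and 3.18, 3.20 and 4.65 CPM at E16.5. In all 4 lists the groups were apart. E16.5 replicate 3 held the highest sum of its group in each list, and E18.5 replicate 3 held the highest of its own.

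**Figure D2:**
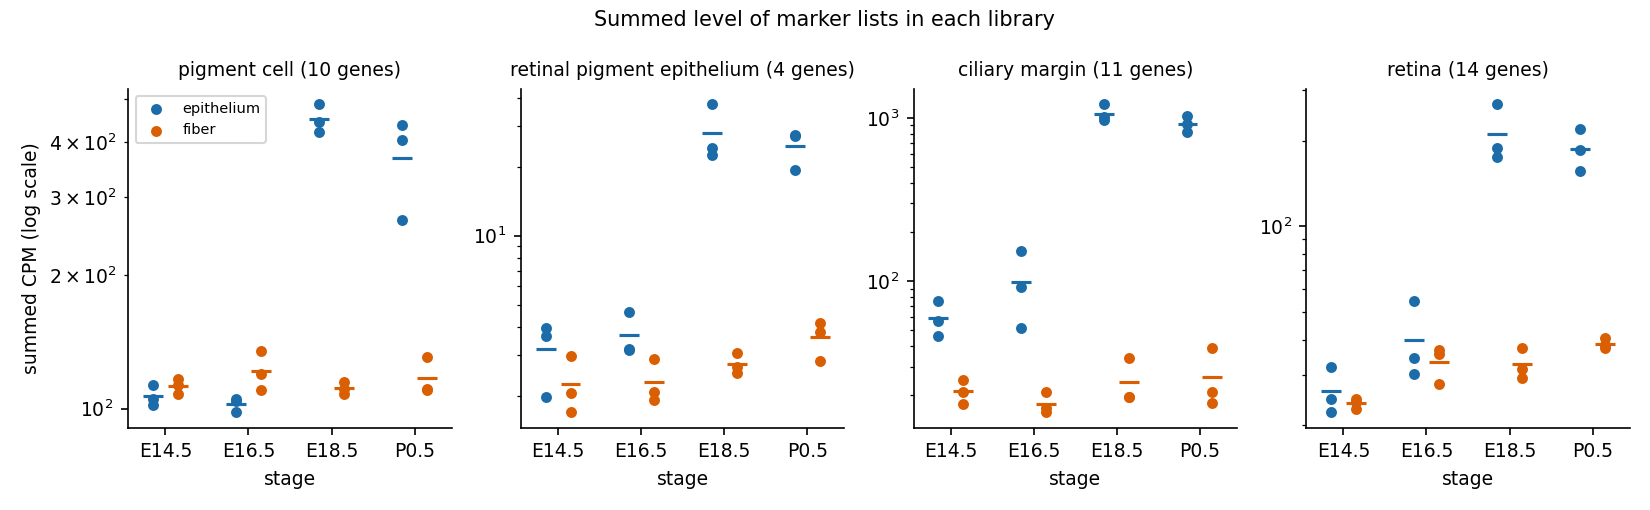
Summed CPM of the tested members of 4 marker lists (log axis) in each library, by stage, with epithelium in blue and fiber in orange; points are libraries and bars are means of 3. In epithelium the E18.5 libraries lie above the E16.5 libraries in all 4 panels, and the P0.5 libraries stay near the level of E18.5. The fiber sums show no such step, but a sum follows its most abundant members.

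Of the 10 pigment cell genes tested, 9 (90.0%) rose, beside 6.75% of all genes, and none fell. The list's median log2 change was 4.51 against -0.02 for all genes. The 9 were not called in fiber, and for 6 of them the step was larger in epithelium by the test of the difference. Not called does not mean unchanged there, since the fiber log2 change was 1.81 for Tyr, 1.73 for Tyrp1, 2.07 for Mlana and 1.74 for Slc24a5. Their adjusted p in fiber, by the same quasi-likelihood test, was 0.414, 0.141, 0.448 and 0.38. These fiber changes were thus imprecise and were not shown to differ from 0. Among the others of the 9 it ran from -0.19 (Mitf) to 0.74 (Dct). For Tyr, Mlana and Slc24a5 the steps of the tissues were not shown to differ. Tyr encodes tyrosinase, the enzyme that starts melanin synthesis and is defective in albino mice, and its mRNA stood at 13.2, 11.2 and 14.6 CPM at E18.5 and 0.0775, 0.175 and 0.375 CPM at E16.5 (log2 change 5.91 ± 0.58 SE, adjusted p = 2.71e-08). Tyrp1, a melanosome enzyme of the same family, stood at 51.7, 42.6 and 53.6 CPM at E18.5 and 0.698, 1.63 and 1.57 CPM at E16.5 (5.20 ± 0.29, adjusted p = 3.79e-12). Dct, the third enzyme of the family, stood at 26.5, 32.7 and 41.3 CPM at E18.5 and 0.233, 0.873 and 1.5 CPM at E16.5 (5.24 ± 0.38). All 3 enzymes were near 0 in every E16.5 library and well above it in every E18.5 library.

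Pmel, which forms the fibrils on which melanin is laid down, stood at 54.9, 53.3 and 53.5 CPM at E18.5 and 0.775, 1.92 and 3.37 CPM at E16.5, a 26.5-fold rise (adjusted p = 2.74e-10). Rab38, a GTPase that carries enzymes to the melanosome, stood at 27.3, 28.5 and 31.7 CPM at E18.5 and 1.01, 2.27 and 3.9 CPM at E16.5. Slc24a5, a cation exchanger of the melanosome pathway, rose by 4.54 on the log2 scale, on 7 counts in all 3 E16.5 libraries. Mlana, a melanosome protein, had 18, 12 and 19 counts at E18.5 and 1, 1 and 0 counts at E16.5, too few at E16.5 for a fold to be useful.

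Mitf encodes the transcription factor that activates most genes of this list. It stood at 47.6, 39.8 and 50.6 CPM at E18.5 and 3.8, 6.46 and 5.55 CPM at E16.5 in epithelium (3.10 ± 0.18), but averaged 87.1 CPM at E18.5 and 98.9 CPM at E16.5 in fiber, where its log2 change of -0.19 did not pass the test. Most of the fiber sum of the pigment list was Mitf. Trpm1, a channel gene controlled by MITF, stood at 172, 160 and 191 CPM at E18.5 and already had 60.1, 58.7 and 59.8 CPM at E16.5, the smallest rise of the list (1.55 ± 0.10). Oca2, a melanosome membrane protein, was the 1 member that was not called, with 46, 46 and 44.5 CPM at E18.5 and 31.3, 31.4 and 28.3 CPM at E16.5 (0.58 ± 0.12), below the 2-fold limit although the groups did not overlap. In fiber Oca2 rose, by 1.12 on the log2 scale with an adjusted p of 0.0463, and it was the 1 member called there.

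The list's promoters were read because its members moved together. The M-box, TCATGTG on either strand (reverse complement CACATGA), is the element through which MITF is known to act on melanocyte genes. The 250 bases before a start were available for 7 of the 10 genes in RefSeq (GRCm38.p6), and 5 of the 7 held the motif. Counted by windows, since some genes have several starts, 5 of 10 held it, against 1.70% of 12261 windows of tested genes. The motif is known from melanocyte genes and the list was made up of pigment genes. The excess was thus built into the choice and tests nothing about the step. Mitf and Oca2 held no match. The 5 stretches of 80 bases follow, on the gene's strand, with the motif in capitals. They lie at chr7:87493513-87493592 (Tyr, minus strand), chr4:80834130-80834209 (Tyrp1, plus), chr14:118052354-118052433 (Dct, minus), chr2:125068047-125068126 (Slc24a5, plus) and chr7:64153657-64153736 (Trpm1, plus).
Tyr: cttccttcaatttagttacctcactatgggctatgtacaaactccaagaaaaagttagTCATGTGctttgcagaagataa
Tyrp1: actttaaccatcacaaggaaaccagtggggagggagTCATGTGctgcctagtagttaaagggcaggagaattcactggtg
Dct: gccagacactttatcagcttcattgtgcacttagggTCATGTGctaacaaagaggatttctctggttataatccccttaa
Slc24a5: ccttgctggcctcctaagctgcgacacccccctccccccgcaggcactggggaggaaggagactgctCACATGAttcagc
Trpm1: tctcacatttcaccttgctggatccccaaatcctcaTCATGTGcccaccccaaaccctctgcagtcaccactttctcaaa
The first base of the motif lay 22 bases before the RefSeq start in Tyr, 47 in Tyrp1, 151 in Dct, 13 in Slc24a5 and 142 in Trpm1, and Dct held a further match 232 bases before its start, outside the stretch shown. A match describes the letters only. Trpm1 holds the motif and had the smallest change of the called members, and Mitf holds none in these windows and rose.

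The retinal pigment epithelium list had 4 tested members, of which 3 rose. Rlbp1, the retinaldehyde binding protein of pigment epithelium and Müller glia, stood at 7.25, 5.95 and 8.38 CPM at E18.5 and 0.233, 0.233 and 0.45 CPM at E16.5 (4.54). Kcnj13, a potassium channel of the pigment epithelium, stood at 10.9, 9.85 and 15.2 CPM at E18.5 and 0.0775, 0.582 and 1.05 CPM at E16.5 (4.36). Otx2, a transcription factor of pigment epithelium and photoreceptors, rose by 2.74, and Rdh5, a retinol dehydrogenase, was not called (0.49). In the short list of crest-derived melanocytes and glia, Kit (0.73) and Ednrb (-0.88) were not called. The sum of the list was 39.7, 34.8 and 35.4 CPM at E18.5 and 46.0, 58.0 and 47.5 CPM at E16.5, lower at E18.5 in every library, while 9 of the 10 pigment genes rose.

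All 11 ciliary margin genes rose, beside 6.75% of all genes, with a median log2 change of 3.94, and none of them was called in fiber. For 7 the step was larger in epithelium by the test of the difference. Optc, which encodes opticin, a proteoglycan secreted into the vitreous by the ciliary body, stood at 107, 101 and 138 CPM at E18.5 and 0.543, 1.34 and 5.92 CPM at E16.5. It had a 45.4-fold rise (5.51 ± 0.35, adjusted p = 4.3e-11), the largest of any gene that reached the 50 CPM set for naming. In fiber it averaged 1.41 CPM at E18.5 and 0.23 CPM at E16.5, and the difference of the 2 steps was not called for Optc. Nor was it for Bmp4, which averaged 0.245 CPM at E18.5 and was listed at 0 at E16.5 in fiber, or for Wfdc1, which averaged 0.949 CPM at E18.5 and 0.0661 CPM at E16.5 in fiber. For these genes the steps of the tissues were not shown to differ.

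The 3 chains of collagen IX, a component of vitreous fibrils, rose together. Col9a1 stood at 351, 306 and 384 CPM at E18.5 and 21.3, 36.9 and 56.5 CPM at E16.5 (3.18). Col9a2 stood at 64.1, 68.2 and 75.3 CPM at E18.5 and 0.93, 3.55 and 9.07 CPM at E16.5 (3.94). Col9a3 stood at 41.4, 35.5 and 54.7 CPM at E18.5 and 0.698, 1.28 and 2.25 CPM at E16.5 (4.96). In each chain the groups were apart and E16.5 replicate 1 was the lowest library.

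Bmp4, the BMP ligand of the ciliary margin, stood at 38.8, 36.3 and 46.3 CPM at E18.5 and 0.155, 0.757 and 3.37 CPM at E16.5 (4.85). Zic1, a zinc finger transcription factor, stood at 138, 138 and 167 CPM at E18.5 and 3.18, 10.3 and 18.3 CPM at E16.5 (3.79), and Zic2 (3.36) and the homeobox gene Otx1 (4.08) rose as well. Gas1, a membrane protein that binds hedgehog ligands, stood at 102, 96.8 and 107 CPM at E18.5 and 18.1, 21.9 and 24.9 CPM at E16.5 (2.23). Wfdc1 (4.03) and Msx1 (2.0) completed the list. The E16.5 libraries spread widely: Otx1 was at 53.6, 58.7 and 71.7 CPM at E18.5 and at 0.31, 2.85 and 7.72 CPM at E16.5.

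Of 14 retina genes tested, 10 (71.4%) rose, beside 6.75% of all genes, and none fell (median 2.70). Of the 10, 7 had a step called larger in epithelium than in fiber. The transcription factors of the optic cup led this list. Six6, a homeobox factor of retinal progenitors, stood at 31, 30.2 and 44.9 CPM at E18.5 and 1.63, 3.32 and 7.57 CPM at E16.5 (3.09 ± 0.31, adjusted p = 4.76e-08). Lhx2 stood at 35.1, 36.4 and 51.1 CPM at E18.5 and 0.853, 2.44 and 8.02 CPM at E16.5 (3.45), and Rax rose by 3.22. These 3 factors are shared by retina and ciliary margin, and each was highest in replicate 3 of its stage.

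The neuronal members of the retina list were less uniform. Crx (2.64), Atoh7 (1.47), Neurod1 (2.57), Neurod4 (3.06) and the neuronal gene Stmn2 (2.75) rose. The photoreceptor gene Rcvrn (-0.45), the neuronal RNA binding protein Elavl4 (0.88), the Notch target Hes5 (0.62) and the glial gene Fabp7 (0.60) were not called. Whether these RNAs came from cells of neighbouring tissue in the dissected piece or from epithelial cells was not tested.

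Among the 12 largest rises at a level of at least 50 CPM were Optc, Pmel and Otx1, described above, and transporters, a matrix signal and further transcription factors. Slc13a4, a sulfate transporter, stood at 57.1, 57.1 and 76.6 CPM at E18.5 and 0.0775, 1.69 and 4.12 CPM at E16.5 (5.01 ± 0.39). Slc16a10, an aromatic amino acid transporter, stood at 72.2, 63.8 and 99.4 CPM at E18.5 and 0.388, 2.33 and 5.17 CPM at E16.5 (4.90). Fam129a stood at 61.5, 57.1 and 73.3 CPM at E18.5 and 1.55, 1.63 and 3.37 CPM at E16.5 (4.89 ± 0.18, adjusted p = 6.82e-15). All 3 were near 0 at E16.5 and none overlapped between stages.

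Tbx20, a T-box transcription factor, stood at 79.8, 65.3 and 75.5 CPM at E18.5 and 0.233, 2.97 and 4.72 CPM at E16.5 (4.77). Reln, which encodes the secreted protein reelin, stood at 270, 244 and 405 CPM at E18.5 and 6.12, 12.2 and 35.1 CPM at E16.5 (4.12). Lrrn1, a leucine-rich repeat membrane protein, stood at 135, 156 and 235 CPM at E18.5 and 1.16, 4.48 and 22 CPM at E16.5 (4.27). Megf11 (4.53), Crhbp, the binding protein of corticotropin releasing hormone (4.33), and Zic4 (4.10) were the others. As a ratio, Lrrn1 differed more between E16.5 replicates 1 and 3 than between E16.5 replicate 3 and the lowest E18.5 library, and E16.5 replicate 1 was the lowest library for each of these 6 genes.

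Among called genes at the naming level, those with the largest gain in CPM at E18.5 were Fbn2, Gja1, Col9a1 and Reln. Fbn2 encodes fibrillin 2, a protein of microfibrils such as those of the zonule that hangs the lens from the ciliary body. It stood at 862, 790 and 1030 CPM at E18.5 and 36, 63.7 and 135 CPM at E16.5 (3.52 ± 0.31, 11.5-fold). Gja1, which encodes the gap junction protein connexin 43, used by lens epithelium and by ciliary epithelium, stood at 784, 806 and 908 CPM at E18.5 and 205, 217 and 238 CPM at E16.5 (1.92 ± 0.17, adjusted p = 3.94e-09). Its fiber libraries averaged 13.2 CPM at E18.5 and 11.4 CPM at E16.5. Unlike Fbn2, Gja1 was close to the same level in all 3 E16.5 libraries.

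Cdon, a co-receptor of hedgehog ligands, stood at 354, 350 and 406 CPM at E18.5 and 87.2, 95.4 and 135 CPM at E16.5 (1.8). Col18a1, a basement membrane collagen, stood at 309, 276 and 305 CPM at E18.5 and 57, 68.4 and 93.4 CPM at E16.5 (2.03). Mab21l2, an eye development gene, stood at 172, 184 and 232 CPM at E18.5 and 3.88, 10.4 and 33.7 CPM at E16.5 (3.63). In all 3 the E16.5 libraries had replicate 1 at the bottom and replicate 3 at the top.

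The noncoding RNA Rmst stood at 198, 173 and 247 CPM at E18.5 and 18.7, 28.6 and 43.3 CPM at E16.5 in epithelium (2.77), while in fiber it averaged 696 CPM at E18.5 and 715 CPM at E16.5. Tmsb4x, which binds actin monomers, stood at 295, 348 and 397 CPM at E18.5 and 99.1, 111 and 120 CPM at E16.5 (1.66), with a change of 0.75 in fiber. Ahnak, a large scaffold protein, stood at 376, 369 and 364 CPM at E18.5 and 199, 169 and 171 CPM at E16.5 (1.04, and 1.0 without E16.5 replicate 2). In fiber Ahnak averaged 220 CPM at E18.5 and 45.3 CPM at E16.5 (2.28), so its step was smaller in epithelium than in fiber by 1.24 on the log2 scale.

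The 74 rises shared with fiber included genes of the basement membrane, of transport, of the hypoxia response and of the crystallins, and no member of the 4 eye marker lists. Col4a3 and Col4a4 encode collagen IV chains that join Col4a5 in mature basement membranes. Col4a3 stood at 125, 128 and 160 CPM at E18.5 and 32.3, 21.1 and 31.6 CPM at E16.5 in epithelium (2.29 ± 0.22, adjusted p = 1.99e-08), and averaged 24.9 CPM at E18.5 and 9.64 CPM at E16.5 in fiber (1.35). Col4a4 stood at 168, 181 and 211 CPM at E18.5 and 48.9, 27.7 and 44 CPM at E16.5 in epithelium (2.23 ± 0.29, adjusted p = 1.8e-06), and averaged 21.6 CPM at E18.5 and 1.19 CPM at E16.5 in fiber (4.20). Neither gene overlapped between the stages in epithelium.

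Over the 4 stages, Col4a3 averaged 2.16 CPM at E14.5 and 300.0 CPM at P0.5 in epithelium, and Col4a4 averaged 0.984 CPM at E14.5 and 392 CPM at P0.5. Unlike Optc, which averaged 71.4 CPM at P0.5, both were higher at P0.5 than in any E18.5 library. The genes lie head to head on chromosome 1, Col4a4 on the minus strand at 82448423 to 82586849 and Col4a3 on the plus strand at 82586921 to 82722059 (GENCODE M21, GRCm38). The whole interval between their starts is 71 bases long, at chr1:82586850-82586920, and is shown on the strand of Col4a4 because the pair rose together and starts from it.
Col4a4 to Col4a3: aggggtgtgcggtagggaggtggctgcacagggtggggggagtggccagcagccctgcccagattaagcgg
Its G and C content was 69.0%. Col4a1, a chain of the collagen IV found in all basement membranes, stood at 3050, 3340 and 3020 CPM at E18.5 and 2650, 2540 and 2450 CPM at E16.5 in epithelium, a change of 0.30 that stayed under 2-fold.

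Htra1, a secreted serine protease that acts on matrix proteins, stood at 125, 128 and 161 CPM at E18.5 and 7.67, 8.15 and 10.6 CPM at E16.5 in epithelium (3.97 ± 0.16, 15.6-fold, adjusted p = 3.34e-14). In fiber it averaged 18.3 CPM at E18.5 and 4.51 CPM at E16.5 (2.01), so it rose in both tissues and by 1.96 more, on the log2 scale, in epithelium. Slc6a15, a transporter of neutral amino acids, stood at 210, 155 and 159 CPM at E18.5 and 25.8, 26.5 and 24.9 CPM at E16.5 (2.76 ± 0.22, adjusted p = 8.77e-10), and averaged 7.79 CPM at E18.5 and 1.08 CPM at E16.5 in fiber (2.87, adjusted p = 0.000266). The E16.5 libraries of Slc6a15 lay close together, in contrast to those of ciliary margin genes such as Optc, Zic1 and Otx1. Those of Htra1 spread, as a ratio, about as much as those of the ciliary margin gene Gas1, also with replicate 1 lowest and replicate 3 highest.

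Further shared rises were smaller. Nfia, a nuclear factor I transcription factor, stood at 107, 93.6 and 131 CPM at E18.5 and 32.4, 35 and 37.3 CPM at E16.5 (1.66 in epithelium and 1.47 in fiber). Anxa2, an annexin of the membrane cytoskeleton, stood at 69.9, 78.2 and 75 CPM at E18.5 and 31.6, 33 and 29.4 CPM at E16.5 (1.25 in epithelium and 2.13 in fiber). Sema3f, a secreted semaphorin, changed by 1.3 in epithelium and 1.27 in fiber. Colgalt2, a galactosyltransferase that modifies collagen, changed by 1.17 in epithelium and 1.20 in fiber.

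The shared rises Hif3a, Aldoc and Egln3 belong to the response to low oxygen or to glycolysis. Hif3a, a hypoxia-inducible factor subunit, stood at 173, 159 and 189 CPM at E18.5 and 68.5, 78.2 and 87.7 CPM at E16.5 in epithelium (1.15, and 1.59 in fiber). Aldoc, a glycolytic aldolase, stood at 54.5, 52 and 63.2 CPM at E18.5 and 25.8, 24.5 and 23.1 CPM at E16.5 (1.21), and averaged 270 CPM at E18.5 and 67.6 CPM at E16.5 in fiber (2.0). Egln3, the oxygen sensor that marks HIF subunits for removal, changed by 2.04 in epithelium and 1.15 in fiber. In the list of 18 glycolysis and hypoxia genes as a whole, 3 (16.7%) rose in epithelium, beside 6.75% of all genes, and none fell (median 0.26). In fiber 6 rose (median 0.78), beside 1.91% of all genes. Pfkp (1.61), a phosphofructokinase, was the third member called in epithelium, while the lactate dehydrogenase gene Ldha (0.31) and the glucose transporter gene Slc2a1 (0.03) were not called.

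The core of the hypoxia response element is ACGTG on either strand (reverse complement CACGT). It was present in the 250 bases before a start of 10 of the 17 genes of this list that have a RefSeq promoter. Counted by windows, since several of these genes have more than 1 start, 11 of 25 held it, against 21.7% of 12261 windows of tested genes. The Aldoa windows with a match overlap and share the same site. Motif and list were chosen for the same response, so the share describes the letters only. Egln3 held the core 229 bases before its start, and Aldoc and Pfkp held none.

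**Figure D3:**
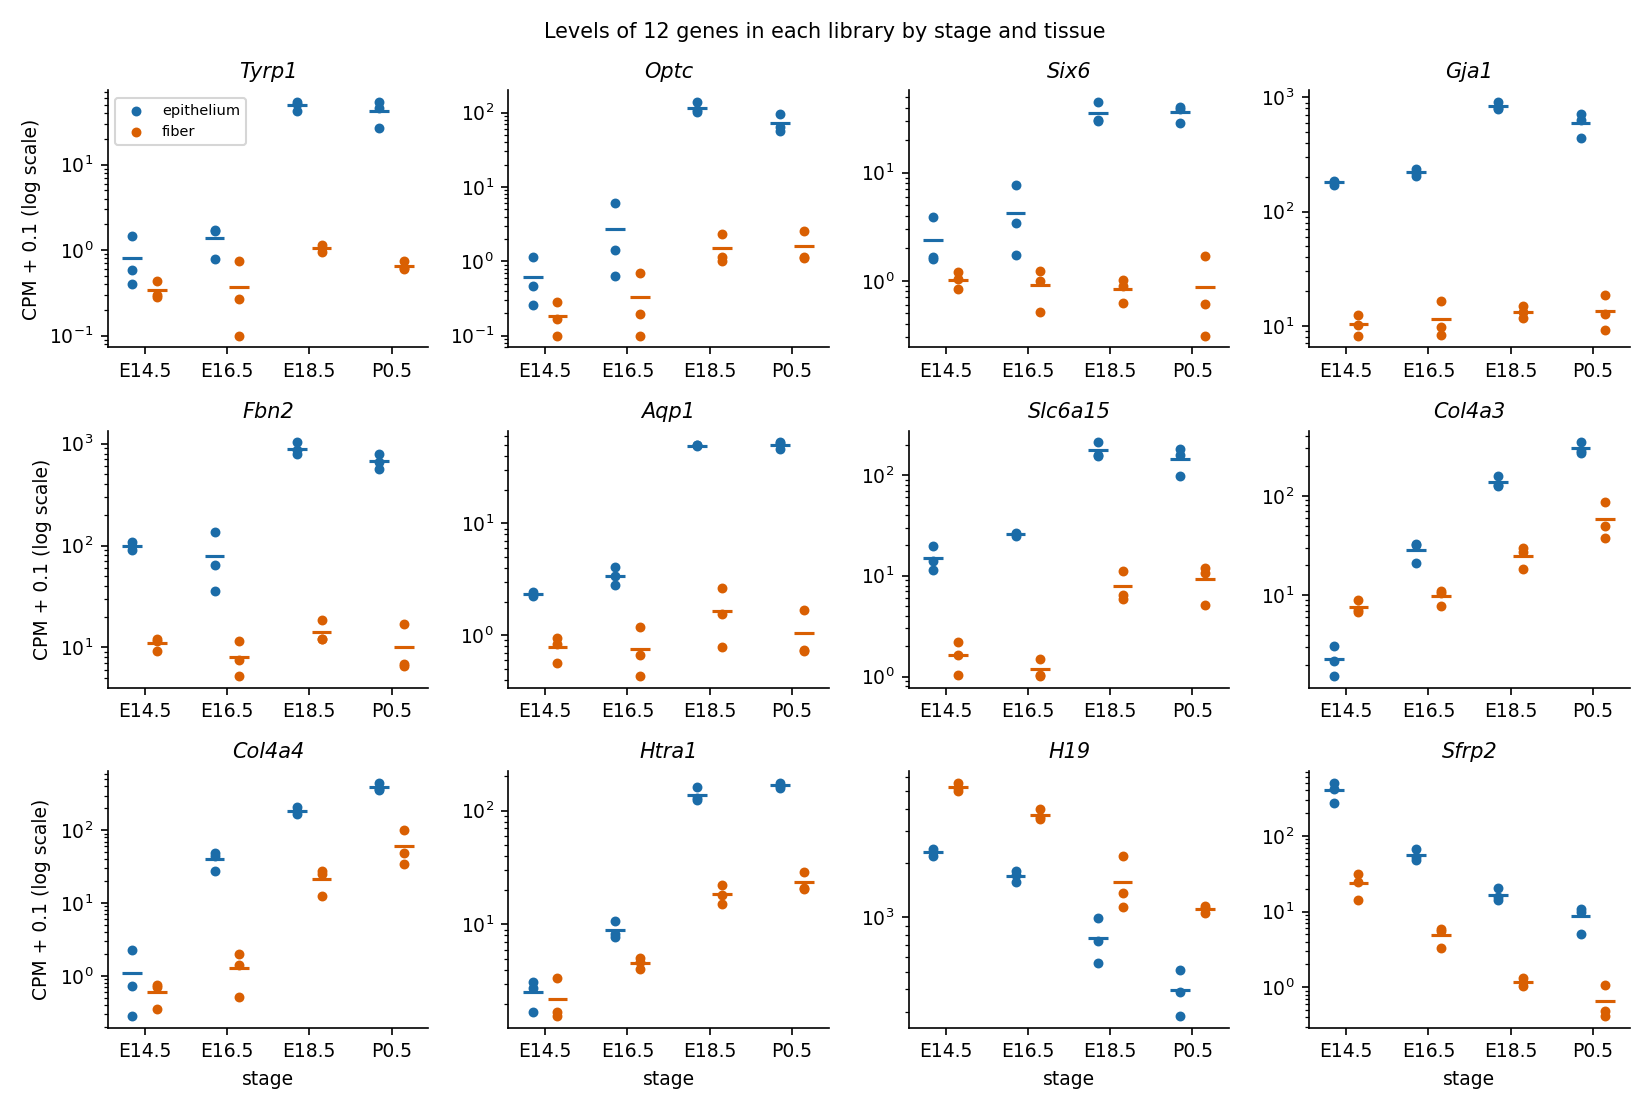
CPM plus 0.1 (log axis) of 12 genes in each library at 4 stages, epithelium in blue and fiber in orange, with points for libraries and bars for means of 3. In epithelium Tyrp1, Optc and Six6 lie far higher at E18.5 than at E16.5, Col4a3 and Col4a4 lie higher at each later stage, and H19 and Sfrp2 lie lower at E18.5 than at E16.5 in both tissues.

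Likeness to the eye markers was also described inside the stages, where the step itself plays no part. For each gene, the log2 CPM of the 12 epithelium libraries was taken as a deviation from its 4 stage means and correlated with the same deviation of the summed marker level. That summed level deviated by -0.08, -0.12 and 0.20 in the E18.5 libraries and by -0.38, -0.03 and 0.41 in the E16.5 libraries. The E16.5 libraries thus carried most of the spread.

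The median Pearson r was 0.70 for the 378 rises that were larger in epithelium (quartiles 0.47 and 0.84), 0.43 for the 387 other rises and 0.25 for the 74 shared rises, beside -0.01 for all genes tested. With members of the lists left out, the median of the remaining 357 was 0.69. An r above 0.5 was found for 273 of the 378 (72.2%), 177 of the 387 (45.7%) and 22 of the 74 (29.7%), beside 13.9% of all genes. These values are descriptive, since the points share their libraries, their depth and their dissection.

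Single genes differed within each class. Fam129a (0.93), Fbn2 (0.93), Col9a1 (0.90), Mab21l2 (0.90), Cdon (0.90), Reln (0.89), Crhbp (0.89) and Rmst (0.88) were high among the named rises. Among shared rises, Egln3 (0.72), Hif3a (0.71), Htra1 (0.70) and Colgalt2 (0.63) were also high, and Nfia (0.52) and Sema3f (0.52) lay just above 0.5. Col4a4 (0.21), Col4a3 (0.18), Slc6a15 (0.13), Ahnak (-0.04), Anxa2 (-0.16) and Aldoc (-0.34) were low, near or below the median of all genes in the case of Ahnak, Anxa2 and Aldoc.

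**Figure D4:**
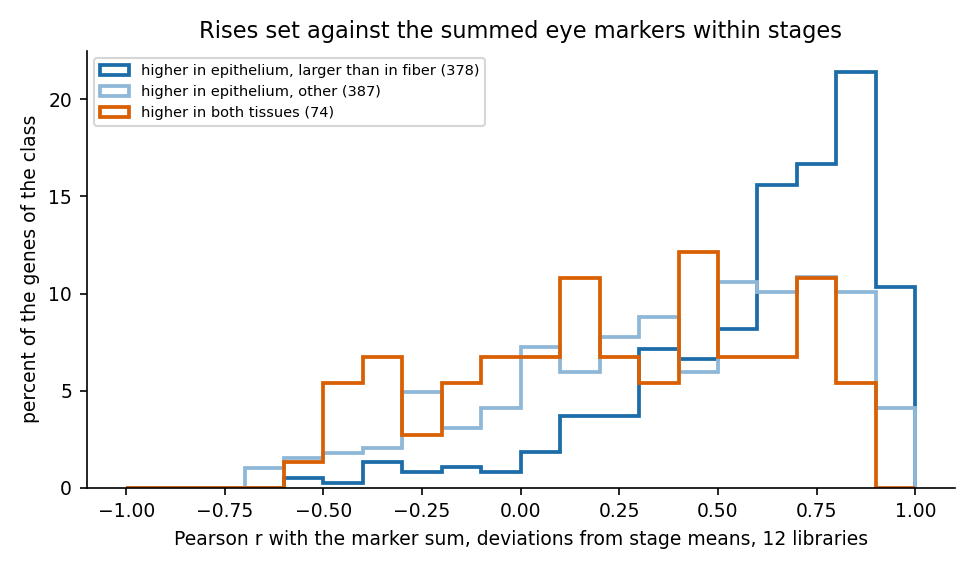
Distribution, in percent of each class, of Pearson r between a gene and the summed eye markers over 12 epithelium libraries after removal of stage means. The 378 rises that are larger in epithelium pile up at high r, the 74 rises shared with fiber spread from below 0 to 0.9, and the 387 others lie between.

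In the lens lists, 20% of lens epithelium and of lens fiber genes, 12.5% of crystallins and 5.26% of lens transcription factors rose, beside 6.75% of all genes, and the medians lay between -0.23 and 0.20. In the lens epithelium list, 2 of 10 genes rose and 1 fell, with a median of -0.14. Aqp1, the water channel, stood at 48.8, 49.8 and 50.2 CPM at E18.5 and 2.71, 3.26 and 3.97 CPM at E16.5 (3.90 ± 0.17, adjusted p = 1.59e-13), and Gja1 was the other rise. Sfrp2, a Wnt antagonist, was the fall and is described with the falls. Foxe3 (-0.06, adjusted p = 0.824) was not called, and the cell adhesion gene Cdh1 (-0.28, adjusted p = 0.0236) and Pax6 (0.39, adjusted p = 7.73e-05) stayed under 2-fold. In its summed level the list stood at 2840, 2980 and 2830 CPM at E18.5 and 2510, 2470 and 2460 CPM at E16.5. Gja1 alone gained more CPM than the whole list, so the other members together were lower at E18.5.

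Of 19 lens transcription factors, only Sox11 rose, at 86.7, 80.4 and 132 CPM at E18.5 and 36, 43.4 and 54.1 CPM at E16.5 (1.16, and 0.91 without E18.5 replicate 3), and none fell. Prox1 (-0.69), Maf (-0.77), Sox1 (-0.72) and Gata3 (-0.85), factors of fiber differentiation, had adjusted p of 4.38e-08 to 1.79e-07 and stayed under 2-fold, and the optic factor Six3 changed by 0.10. The 26 proliferation genes held between -0.29 and 0.14. Mki67, a marker of cycling cells, stood at 366, 395 and 392 CPM at E18.5 and 384, 345 and 399 CPM at E16.5, and the groups overlapped. Among 12 cell cycle inhibitors and D cyclins none was called. Of these, 4 passed the adjusted p and not the fold, 3 lower, such as Cdkn1c (-0.48) and Ccnd2 (-0.35), and Rbl2 (0.33) higher.

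Among 16 crystallins, 2 rose and none fell (median 0.20), and both were shared with fiber. Crybb2 lay between 12.7 and 35.9 CPM at E18.5 and between 4.87 and 5.82 CPM at E16.5 in epithelium (1.94), with E18.5 replicate 3 apart from the others. In fiber it averaged 1000 CPM at E18.5 and 19.3 CPM at E16.5 (5.70). Crygb stood at 225, 307 and 186 CPM at E18.5 and 103, 137 and 109 CPM at E16.5 (1.04 in epithelium, 1.06 in fiber), and its change ran from 0.82 to 1.19 without single libraries, under 2-fold without any of 3 of the 6. Reads of near-identical gamma crystallins may be shared between genes in the counting. Cryaa, the most abundant of those named, stood at 9560, 8790 and 8890 CPM at E18.5 and 11700, 13700 and 12100 CPM at E16.5 (-0.46, not called). The lens fiber list summed to 9330, 8700 and 8720 CPM at E18.5 and 10900, 12200 and 11000 CPM at E16.5. The fiber sum of this list averaged 118000 CPM at E18.5 and 85300 CPM at E16.5.

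In 19 basement membrane genes, Col4a3, Col4a4 and Col18a1 rose (15.8%, beside 6.75% of all genes) and none fell (median 0.39). Lama1, a laminin chain of the lens capsule, stood at 422, 405 and 346 CPM at E18.5 and 539, 519 and 494 CPM at E16.5 (-0.40), apart in all libraries and under 2-fold.

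In the signalling lists between 7.14% (Notch) and 33.3% (IGF) of the tested members rose, beside 6.75% of all genes. Among 18 BMP and TGF-beta genes 4 (22.2%) rose and none fell (median 0.43). Bmp2, a ligand, stood at 11.1, 11.4 and 17.5 CPM at E18.5 and 0.543, 0.466 and 1.2 CPM at E16.5 (4.20), and Bmp4 is given above. The receptor Bmpr1b (1.12, and 0.93 without E18.5 replicate 1) and the pseudoreceptor Bambi (1.02, and 0.98 without E16.5 replicate 2) were close to the 2-fold limit.

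Among 22 Wnt genes 5 (22.7%) rose and Sfrp2 fell (median 0.32). Wnt2b, a ligand of the ciliary margin, stood at 5.92, 6.03 and 4.58 CPM at E18.5 and 0.0775, 0.116 and 0.375 CPM at E16.5 (4.83). Lef1, a nuclear effector and target, stood at 40.7, 39.1 and 41.8 CPM at E18.5 and 6.2, 6.81 and 11.5 CPM at E16.5 (2.31). Nkd2, an inhibitor that Wnt signals induce, stood at 55.3, 54.5 and 70.9 CPM at E18.5 and 1.24, 3.73 and 10.4 CPM at E16.5 (3.57). The co-receptor Lrp5 (1.37) and the antagonist Wif1 (3.03) also rose, so members on both the activating and the inhibiting side of the pathway were among the rises.

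Among 14 Notch genes only the ligand Dll1 rose, at 25.5, 23.5 and 29.9 CPM at E18.5 and 0.93, 1.75 and 4.2 CPM at E16.5 (3.53). Among 14 FGF genes the feedback inhibitor Il17rd (28.5, 27.4 and 30.3 CPM at E18.5 and 5.35, 7.28 and 8.7 CPM at E16.5, 2.01) and the target Etv4 (1.26) rose. In 9 IGF genes 3 rose, among them Igfbp2 (3.31), a binding protein, and Igf1 (2.74), a ligand. In 13 retinoic acid genes the synthesis enzymes Rdh10 (2.33) and Aldh1a3 (2.04) and the binding protein Crabp1 (2.91, at no more than 1.09 CPM) rose. None of these 4 lists held a fall, and the medians were 0.21 for Notch, -0.01 for FGF, 0.43 for IGF and 0.14 for retinoic acid.

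Sgk1, a kinase gene that glucocorticoids induce, stood at 58.8, 58.9 and 65.3 CPM at E18.5 and 1.09, 4.42 and 5.4 CPM at E16.5 (4.04). Klf9 (1.21) and Mt1 (1.74, at no more than 1.63 CPM, and 1.27 with an adjusted p of 0.194 without E18.5 replicate 3) were the other rises in the list of 10 glucocorticoid responsive genes (median 0.32). In 13 genes of water and ion transport 3 rose and 1 fell (median 0.25). Rises made up 30.0% of the glucocorticoid and 23.1% of the transport genes, beside 6.75% of all genes, and falls 7.69% of the transport genes, beside 0.547%. Aqp1 and the sodium pump subunit Atp1b2 (2.09) were among the rises, and the epithelial sodium channel subunit Scnn1b, at no more than 0.31 CPM at E18.5 and 1.86 CPM at E16.5, fell (-2.32).

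**Figure D5:**
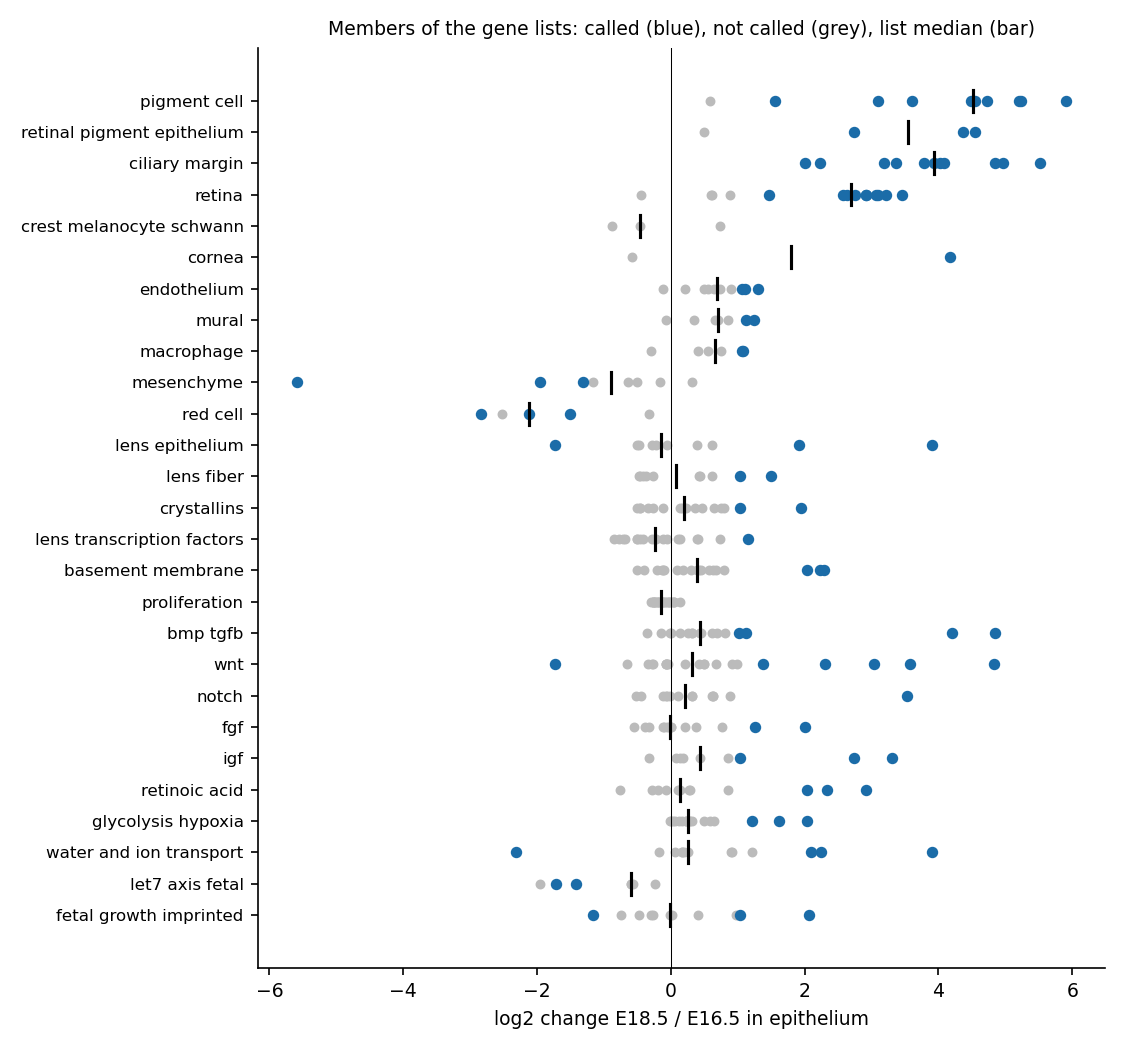
Log2 change of each tested member of 27 gene lists in epithelium, E18.5 against E16.5; blue points were called, grey points were not, and the black bar is the list's median. The pigment cell, retinal pigment epithelium, ciliary margin and retina lists lie to the right, the lens, proliferation and FGF lists centre near 0, and the red cell and mesenchyme lists centre below 0.

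The falls were few, and 7 of the 68 reached the level set for naming. Lrtm1, a leucine-rich repeat membrane protein, stood at 17.4, 18.1 and 16 CPM at E18.5 and 75.7, 74.1 and 72 CPM at E16.5 (-2.11 ± 0.12, adjusted p = 1.09e-11). It averaged 110 CPM at E14.5 and 9.69 CPM at P0.5. Capn3, a calcium-dependent protease, stood at 218, 196 and 210 CPM at E18.5 and 517, 562 and 472 CPM at E16.5 (-1.31), and averaged 4120 CPM at E18.5 and 8230 CPM at E16.5 in fiber. Matn2, a matrix protein, stood at 35.4, 29.8 and 43.4 CPM at E18.5 and 85.4, 62.6 and 83.7 CPM at E16.5 (-1.09, and -0.97 without E18.5 replicate 2). None of the 3 overlapped between stages.

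Lin28b, an RNA binding protein that blocks maturation of let-7 microRNAs in fetal cells, stood at 21.2, 17.4 and 19.6 CPM at E18.5 and 51.8, 57.6 and 46.8 CPM at E16.5 (-1.42, adjusted p = 4.8e-10). In the list of 7 genes of the let-7 axis, Lin28b and Sall4 (-1.71, a pluripotency factor) fell (28.6%, beside 0.547% of all genes) and none rose (median -0.60). Hmga2, a chromatin protein and known let-7 target, stood at 363, 379 and 304 CPM at E18.5 and 532, 533 and 493 CPM at E16.5 (-0.57), and Igf2bp1, an RNA binding protein, changed by -0.59. Both were apart between stages and passed the adjusted p but not the fold.

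Abca13, a transporter of the ABC family, stood at 53.1, 111 and 147 CPM at E18.5 and 430, 123 and 161 CPM at E16.5 (-1.20, adjusted p = 0.0308). The groups overlapped, and without E16.5 replicate 1 the change was -0.46 with an adjusted p of 0.422. The call was also lost without E18.5 replicate 1 (-0.88, adjusted p = 0.151) and without E18.5 replicate 2 (adjusted p = 0.0611). It was lost as well with DESeq2 (adjusted p = 0.168), with the replicate block and in the fits of fewer libraries, so this call is fragile.

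Falls shared with fiber numbered 13, which is 19.1% of the epithelium falls and 14.4% of the fiber falls. H19, an imprinted noncoding RNA of fetal growth, stood at 995, 744 and 558 CPM at E18.5 and 1580, 1820 and 1720 CPM at E16.5 in epithelium (-1.16, and -0.97 without E18.5 replicate 3), and averaged 1570 CPM at E18.5 and 3700 CPM at E16.5 in fiber (-1.24). Its epithelium mean was 2300 CPM at E14.5 and 394 CPM at P0.5. Sfrp2 stood at 14.3, 15.3 and 20.3 CPM at E18.5 and 52.2, 47.3 and 66 CPM at E16.5 (-1.73), and averaged 1.08 CPM at E18.5 and 4.80 CPM at E16.5 in fiber (-2.11). Others were Bcat1, Col3a1, Alox12, Col13a1, Sall4, Slc4a1, Actc1, Hba-x and Prss22, of which Slc4a1 and Hba-x are genes of red cells.

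Genes that rose in epithelium and fell in fiber numbered 14, and none did the reverse. Igf2, the fetal growth factor that shares an imprinted domain with H19, stood at 249, 236 and 232 CPM at E18.5 and 82.5, 132 and 134 CPM at E16.5 in epithelium (1.04 ± 0.18, adjusted p = 9.95e-05, and 0.84 without E16.5 replicate 1). In fiber it averaged 457 CPM at E18.5 and 1320 CPM at E16.5 (-1.53). Igf2 and H19 thus went in opposite directions in epithelium and both fell in fiber. Over the 4 stages Igf2 averaged 354 CPM at E14.5 and 140 CPM at P0.5 in epithelium, so the higher E18.5 level did not last.

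Miat, a nuclear noncoding RNA, stood at 44.1, 48.7 and 81 CPM at E18.5 and 25.8, 22.8 and 37.6 CPM at E16.5 in epithelium (1.02, and 0.70 with an adjusted p of 0.0515 without E18.5 replicate 3). In fiber it averaged 61 CPM at E18.5 and 305 CPM at E16.5 (-2.31). The other 12 genes were Cryl1, Ebf3, Igf2os, Klhl4, Myo16, Nr3c2, Ociad2, Plppr3, Rasef, Ryr3, Smpd3 and Vegfc. Meg3, an imprinted noncoding RNA of another domain, stood at 71.9, 63.6 and 82.5 CPM at E18.5 and 9.85, 15 and 27.7 CPM at E16.5 in epithelium (2.06), and its neighbour Rian rose by 1.52 with an adjusted p of 0.0307, which was 0.11 without E16.5 replicate 1. In fiber Meg3 averaged 84.1 CPM at E18.5 and 156 CPM at E16.5 (-0.88, not called).

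Markers of other cells that lie on the lens gave smaller differences. Of 10 endothelial genes 3 (30.0%) rose, beside 6.75% of all genes, and none fell (median 0.69). The sum of the 10 was 520, 525 and 381 CPM at E18.5 and 270, 267 and 330 CPM at E16.5. Kdr, the main VEGF receptor of vessels, stood at 127, 121 and 95.5 CPM at E18.5 and 54.1, 43.1 and 63.1 CPM at E16.5 (1.11, and 0.97 without E16.5 replicate 2). Flt1, a second VEGF receptor, stood at 65.2, 65 and 44.7 CPM at E18.5 and 21.9, 21.1 and 28 CPM at E16.5 (1.3). With DESeq2, Kdr had an adjusted p of 0.141 and the endothelial receptor Eng (1.06, and 0.94 without E18.5 replicate 1) one of 0.202. E18.5 replicate 3, the highest library for the eye markers, was the lowest of its stage for the endothelial sum.

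Mural cell genes of vessel walls gave 2 rises among 7, Rgs5 (1.25, adjusted p = 0.223 by DESeq2) and Cspg4 (1.13), with a sum of 501, 506 and 427 CPM at E18.5 and 328, 304 and 327 CPM at E16.5. Macrophage genes gave 2 rises among 6, Csf1r (1.08, and 0.88 without E16.5 replicate 1) and Mrc1 (1.07, and 0.75 without E18.5 replicate 3), with a sum of 21, 17.1 and 29.3 CPM at E18.5 and 12.5, 11.1 and 15.5 CPM at E16.5. Rises made up 28.6% of the mural and 33.3% of the macrophage genes, beside 6.75% of all genes. In 7 genes of antigen presentation and interferon response, B2m, the light chain of MHC class I, stood at 15, 12.4 and 14.3 CPM at E18.5 and 6.28, 6.35 and 6.22 CPM at E16.5 (1.15). Ifit3, which interferon induces, had 72, 51 and 39 counts at E18.5 and 0, 0 and 3 counts at E16.5, and it was the other rise. The 2 rises made up 28.6% of this list, beside 6.75% of all genes.

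Mesenchyme and red cell markers were lower at E18.5, and falls made up 37.5% and 60.0% of the genes tested, beside 0.547% of all genes. Of 8 mesenchyme genes 3 fell, the collagen gene Col3a1 (-1.31, and -0.99 without E16.5 replicate 3) and the proteoglycans Dcn (-1.96) and Lum (1 count in the 3 E18.5 libraries together and 18, 10 and 43 counts at E16.5), and none rose. Their sum was 468, 465 and 372 CPM at E18.5 and 634, 587 and 627 CPM at E16.5. Of 5 red cell genes 3 fell, among them Hbb-y (-2.84), an embryonic globin whose reads may be shared with other globins, and the anion exchanger Slc4a1 (-2.12). The sum of the list was 14.2, 11.1 and 11.1 CPM at E18.5 and 18.3, 22.1 and 28.2 CPM at E16.5. The globin genes Hba-a1, Hba-a2, Hbb-bs and Hbb-bt were removed by the count filter, so the share and the sum leave them out. The 2 corneal genes tested gave 1 rise, Pkp1 (4.17), a desmosome protein, at 12, 11.7 and 13 CPM at E18.5 and 0, 0.64 and 1.35 CPM at E16.5, while Perp stood at -0.58. The part of these cell types in the rises and falls of the whole table was not tested.

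The remaining lists gave few or no calls. No gene was called among 16 circadian clock genes (median 0.19), 19 autophagy and lysosome genes (0.24), 20 genes of cholesterol synthesis (-0.39), 20 of oxidative phosphorylation (0.00), 22 ribosomal protein genes (-0.05) or 2 cold-inducible genes (-0.15). Smaller shifts occurred. Every E18.5 library was below every E16.5 library in 14 of the 20 cholesterol genes, beside 2924 of all 12427 genes. Every E18.5 library was above in 13 of the 19 autophagy and lysosome genes, beside 2791 of all genes. In 21 antioxidant genes the glutathione transferases Mgst1 (1.83) and Gsta4 (1.05, and 0.90 without E18.5 replicate 3) rose. In 9 immediate early genes, which respond to stimuli without new protein synthesis, only Ier3 (1.84, at no more than 1.6 CPM) rose, with a median of 0.48. In 10 lens fiber genes Birc7 (1.49) and Dnase2b (1.03, at 3.79, 3.31 and 2.72 CPM at E18.5 and 1.47, 2.27 and 0.9 CPM at E16.5, and a change of 0.78 with an adjusted p of 0.13 without E16.5 replicate 3) rose. Of 11 imprinted genes of fetal growth 2 rose, Igf2 and Meg3, and H19 fell (median -0.01). In 11 long noncoding RNAs 3 rose and H19 fell (median 0.04). Rises made up 9.52% of the antioxidant, 11.1% of the immediate early, 18.2% of the imprinted and 27.3% of the long noncoding genes, beside 6.75% of all genes.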

How the data were processed

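Lens epithelium and fiber of CD1 mice were profiled by stranded total RNA sequencing with ribosomal depletion, per the labels. The deposited counts are whole numbers per gene symbol, not normalized. The mouse build was mm10, and Cufflinks 2.2.1, Cuffdiff, HTSeq 0.6.1, TopHat2 2.0.13 and Trim Galore 0.4.1 were used, per the submitters' processing notes, which name no roles. No label states how strand was treated in counting, and overlapping genes may share reads. Of 12611 symbols, 12340 (97.9%) match 1 gene of GENCODE M21, the source of gene coordinates, and RefSeq (GRCm38.p6) gave the promoters.

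The filterByExpr function of edgeR 4.0.16, at a minimum count of 10 and a minimum total of 15, left 12427 genes and removed 184, of which 46 had no count. All 24 libraries, scaled with TMM, entered 1 quasi-likelihood fit of 8 group means with 16 residual degrees of freedom, and each comparison was a contrast of it. P-values are two-sided and Benjamini-Hochberg adjusted over all genes tested. A gene was called at an adjusted p under 0.05 and at least 2-fold. The difference of the 2 steps is the change in epithelium minus the change in fiber. CPM values are relative to the TMM-scaled library size, given by replicate in the order 1, 2, 3. A value in parentheses after a gene is its log2 change, E18.5 over E16.5, and its SE is that change over the root of its quasi-likelihood F. R 4.3.3, limma 3.58.1 and DESeq2 1.42.0 were also used. Scripts were tested on simulated counts.

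Named genes are of 2 kinds. Those named by size were called, reached 50 CPM in the higher epithelium group and were not predicted genes, histones or small RNAs, and were the 12 largest rises and falls, the 10 largest shared rises and falls, the 10 largest gains and losses in CPM, and up to 6 with opposite calls in fiber each way. Members of 39 gene lists are named at any level, called or not. A few of these genes are not reported here. The rule, the lists and the members were chosen with earlier results of these data known, so lists are described and not tested. Alternatives were other scalings, filters, subsets of libraries, fold limits, DESeq2, a replicate block and leaving out each library.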

Additional observations from a re-analysis of the deposited data

Results flagged for a closer look

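The results below were singled out because the step of a gene differed between epithelium and fiber by a test of the difference itself (edgeR's quasi-likelihood test). Each value is the log2 change in epithelium minus the log2 change in fiber, so a positive value is a larger rise, or a smaller fall, in epithelium. The test called 541 genes higher and 116 lower.

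In the marker lists, the difference was 3.47 for Tyrp1, 4.50 for Dct, 4.45 for Pmel, 3.29 for Mitf, 1.70 for Trpm1 and 3.57 for Rab38 among pigment genes. Rlbp1 of the retinal pigment epithelium differed by 3.4. Retina genes differed by 3.31 for Rax, 3.18 for Six6, 3.39 for Crx, 2.99 for Atoh7 and 3.8 for Stmn2. Ciliary margin genes differed by 4.23 for Otx1, 3.27 for Zic1, 3.53 for Zic2, 1.72 for Gas1, 2.91 for Col9a1, 4.84 for Col9a2 and 3.75 for Col9a3. The corneal gene Pkp1 differed by 4.50. The Tyrp1 difference had the largest adjusted p of these 6 pigment genes, with an SE of 1.18 and an adjusted p of 0.0448.

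Among other strong rises the difference was 4.72 for Fam129a (SE 0.31, adjusted p = 1.36e-09), 4.20 for Tbx20, 3.87 for Slc16a10, 3.85 for Reln, 3.77 for Lrrn1, 3.76 for Megf11, 3.18 for Mab21l2, 2.81 for Rmst and 2.72 for Fbn2. It was 1.83 for Col18a1, 1.81 for Cdon, 1.71 for Gja1 and 2.74 for Aqp1. Htra1 rose in both tissues and still differed by 1.96.

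Of signalling and transport genes, Sgk1 differed by 3.86, Dll1 by 3.10, Igf1 by 3.07, Igfbp2 by 2.98, Rdh10 by 2.47, Il17rd by 2.33, Aldh1a3 by 2.19, Etv4 by 2.11, Sox11 by 2.05, Bmpr1b by 1.82, Atp1b2 by 1.58, Bambi by 1.55 and B2m by 1.08. Among noncoding and imprinted genes, Miat differed by 3.33, Meg3 by 2.94, Igf2 by 2.57 and Rian by 2.48. For Igf2 and Miat the 2 tissues moved in opposite directions.

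The difference was negative for Crybb2, at -3.76, and for Ahnak, at -1.24, both of which rose in epithelium and rose more in fiber.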

How the results depend on the processing

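The direction of the 121 called genes covered by the naming rule held, and 100 of them stayed called, under each alternative fitted per gene: scaling, filter, subset, block, DESeq2 and leaving out each epithelium library. Mt1, Ier3, Scnn1b and Lum were not tested in the fit of the 6 epithelium libraries alone. Scaling by library size only gave 127 fiber rises and 353 fiber falls, 27 falls in both tissues, and 1141 and 48 genes higher and lower in the difference of the steps, since it moves the fiber median to -0.36. It also put the summed eye markers at 2730 CPM at E18.5 and 369 CPM at E16.5. Without a minimum fold there were 2113 rises and 1710 falls in epithelium, 1605 and 1141 in fiber, 438 and 401 in both tissues, and 1017 and 1138 higher and lower in the difference. A test against a 1.5-fold change (glmTreat) gave 33 fiber falls, 42 rises and 5 falls in both tissues and 333 genes higher in the difference. Of the 839 rises, 837 were kept with library size only, 824 with DESeq2 and 743 with glmTreat. Leaving out 1 library gave 790 to 896 rises and 61 to 75 falls in epithelium, 216 to 257 rises and 75 to 110 falls in fiber, 62 to 83 rises and 11 to 16 falls in both tissues, and 473 to 604 genes higher and 112 to 136 lower in the difference.

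The labels number replicates 1 to 3 in every group, but same-numbered E18.5 and E16.5 epithelium libraries deviated together with r of 0.0528, 0.0757 and 0.163, so the numbers were not taken as pairs. Each E18.5 epithelium library correlated best with the E16.5 library of its own number, a hint from the data and not from the design. With the replicate block there were 837 rises and 69 falls in epithelium. With 3 libraries a group, genes under about 1 CPM rest on few counts. Each SE covers counting error and the spread between these libraries only.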
